A study of Mus musculus with 6 samples.

Results

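The genes described here are 49 genes of 2 related stress programmes. They were measured in kidney collecting duct cells that overexpressed wild-type ILK or its variant T173I. The first arm holds 29 targets of the transcription factor ATF4 and amino acid transporters. The second arm holds 20 genes of protein folding in the endoplasmic reticulum (ER), with their sensors and degradation factors. They were chosen by name from a list, with earlier results of these data known. Each gene was read from the brightest probe set that the platform annotation gives to that gene alone. Such a probe set was present for 22180 genes, among them 46 of the 49, and 45 of these lay above the filter on dim genes. Pycr1 had no probe set of its own here, Slc6a9 and Pdia4 were read from probe sets that they share with another gene, and Slc7a3 lay under the filter.

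The cells were mouse inner medullary collecting duct (IMCD) cells, a line of kidney epithelium. Stable lines had been made with a lentivirus whose bicistronic vector carried GFP together with wild-type ILK (3 arrays) or ILK-T173I (3 arrays). ILK, integrin-linked kinase, is a scaffold protein of focal adhesions. EGF (20 ng/ml, 15 minutes, then 1 hour of incubation) was given to all 6 samples, so neither the response to EGF nor that to ILK itself was compared. The sources used here do not give the promoter of the vector or how many lines or clones stand behind a group. If a group is 1 line, the effect of the variant cannot be told apart from that of the line. The labels call the 3 arrays of a group biological replicates.

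ATF4 is the effector of the integrated stress response, in which kinases that sense amino acid shortage, ER stress, haem shortage or double-stranded RNA phosphorylate the translation factor eIF2. General protein synthesis then slows while translation of the Atf4 message is favoured, and ATF4 switches on amino acid transporters, synthesis enzymes and tRNA synthetases. The unfolded protein response of the ER shares 1 of these kinases, PERK, and adds ATF6 and the IRE1 and XBP1 branch, which raise the chaperones of the ER. Because ATF4 is controlled largely at translation, its mRNA need not follow its activity.

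Stretches of the promoters are shown because the arms held different response elements. RefSeq promoter windows of assembly GRCm38.p6, from 250 bases before to 50 bases after the start of a gene, were at hand for 41 of the 49 members. The C/EBP-ATF response element that ATF4 dimers bind was searched as TGATGNAA on both strands. It was present for 7 of 24 genes of the ATF4 arm and 1 of 17 of the ER arm, against 4.51% of the 27025 genes in the table. The ER stress element ERSE was searched as CCAAT, any 9 bases and CCACG on both strands. It was present for 8 of 17 genes of the ER arm and 0 of 24 of the ATF4 arm, against 0.137% of all genes in the table. The shorter element ERSE-II, ATTGG, any base and CCACG, was found for Herpud1 and for 0.0444% of those genes. The element UPRE, TGACGTG, was found for Hspa5 and for 2.22% of them, both strands again being searched. ERSE, ERSE-II and UPRE matches did not overlap in a member. A match is a description of the letters in a window and no evidence of binding in these cells. The members were listed as known genes of these programmes, so shares above that of all genes are no finding about these data.

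In the ATF4 arm, Asns, Slc7a11 and Vldlr carry the C/EBP-ATF element before the start, shown in capitals, 5′ to 3′ on the strand of the gene. Slc7a11 has a pair of them in opposite orientation. The windows lie at chr6:7693210-7693257, minus strand, chr3:50443628-50443704, minus strand and chr19:27216795-27216852, plus strand.
Asns: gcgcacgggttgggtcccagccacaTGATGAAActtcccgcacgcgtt
Slc7a11: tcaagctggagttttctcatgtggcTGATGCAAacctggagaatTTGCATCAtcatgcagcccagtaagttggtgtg
Vldlr: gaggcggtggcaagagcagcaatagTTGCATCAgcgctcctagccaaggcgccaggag
Chac1 has the element at -193 to -186 and Pycr1 at -103 to -96 from the start. In Slc1a4 the match spans the start and in Trib3 it lies after it, and neither is shown. The arm's other 17 genes in the table have no match in these windows.

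In the ER arm, Dnajc3, Calr, Canx, Pdia6 and Hsp90b1 carry the ERSE in capitals, with that of Calr in reverse orientation. Hspa5, the best known target of this element, was added after the values were seen. The windows lie at chr14:118937802-118937870, plus strand, chr8:84847050-84847118, minus strand, chr11:50325775-50325843, minus strand, chr12:17266466-17266534, plus strand, chr10:86705613-86705681, minus strand and chr2:34772000-34772068, plus strand.
Dnajc3: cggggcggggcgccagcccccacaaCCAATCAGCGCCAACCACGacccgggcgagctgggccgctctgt
Calr: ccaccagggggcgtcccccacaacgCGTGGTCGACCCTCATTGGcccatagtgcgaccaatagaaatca
Canx: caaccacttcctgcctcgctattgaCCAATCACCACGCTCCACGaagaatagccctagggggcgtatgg
Pdia6: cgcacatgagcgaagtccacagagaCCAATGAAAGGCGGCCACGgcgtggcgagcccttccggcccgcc
Hsp90b1: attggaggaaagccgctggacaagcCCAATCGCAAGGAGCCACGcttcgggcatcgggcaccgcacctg
Hspa5: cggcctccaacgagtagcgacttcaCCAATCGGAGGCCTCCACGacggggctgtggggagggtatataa
Creld2 and Syvn1 are the other genes of the arm with an ERSE, and Hsp90b1 has a second one nearer to the start, at -107 to -89.

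Over all 13308 genes tested, T173I replicate 1 stood apart from the other arrays of its group. Its value on the first principal component, which held 57.4% of the variance, was -11.4, among the wild-type arrays at -18.3 to -11.3, while T173I replicates 2 and 3 were at 38.3 and 15.8. The typical (median) SD of a gene over the 3 arrays was 0.0983 log2 units for wild type and 0.16 for T173I. Of 13 collecting duct markers 11 passed the filter, with Aqp3 and Elf5 under it. Gata3 and Scnn1g had differences of -0.78 and -1.19, and Krt8 and Krt18 were higher by 0.64 and 0.44. The summed log2 signal of the 13 markers was 101.19 to 101.54 on the wild-type arrays and 98.45 to 102.1 on the T173I arrays. Markers of other kidney, stromal and blood cells lay mostly under the filter, with 0 of 4 endothelial, 0 of 3 thick ascending limb, 2 of 6 fibroblast, 2 of 5 proximal tubule and 1 of 4 leukocyte markers above it. Cd68 was that leukocyte marker, higher by 1.10, while Ptprc, Cd3e and Lyz2 were under the filter. The 4 leukocyte markers summed to 20.66 to 22.12 on the wild-type arrays and 22.3 to 22.62 on the T173I arrays. Only Cd68 among them had a higher mean in T173I. The wild-type and T173I means were 3.70 and 3.69 for Ptprc, 5.04 and 4.95 for Cd3e, and 4.91 and 4.77 for Lyz2. The samples are of a cell line and not of tissue, and the part of these shifts in the results was not tested. In bulk RNA fewer cells with a marker cannot be told apart from less of its RNA per cell. Ilk has no probe set of its own in the annotation, so its level was not read.

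The amino acid arm was shifted up in T173I and the ER folding arm was near 0 or slightly lower. Of the 26 tested genes of the ATF4 arm, 22 had positive differences (T173I minus wild type), with a median of 0.28 log2 units. Of the 19 tested ER genes 5 were positive, with a median of -0.087. Over all genes tested 47.4% were positive, with a median of -0.011. The largest differences were those of Mthfd2, a mitochondrial folate enzyme, 2.28-fold higher in T173I, and Slc1a1, a glutamate transporter, 3.41-fold lower.

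No member passed limma's test at an adjusted p of 0.05, and neither did any of the 13308 genes (0 genes, 0.0%). An unadjusted p under 0.05 was reached by 1357 genes, 10.2% of all, with 4.88% higher and 5.31% lower in T173I. In the ATF4 arm 10 of 26 genes were higher and 2 lower at that level, and in the ER arm 0 of 19 were higher and 1 lower. The adjusted p of these 13 members ran from 0.43 to 0.486. The count of 10 fell to 6 without wild-type replicate 1, to 5 without wild-type replicate 3 and to 5 without T173I replicate 3, and was 12 without T173I replicate 1. The count of 2 was 1 without wild-type replicate 3, T173I replicate 2 or T173I replicate 3. In the ER arm, dropping wild-type replicate 1 gave 0 lower genes, and dropping T173I replicate 1 gave 2 lower and 1 higher. In 8 genes of the ATF4 arm all 3 T173I arrays lay above all wild-type arrays and in 1 below, where 7.23% and 7.95% of all genes did so. In the ER arm 0 lay above and 3 below.

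**Figure D1:**
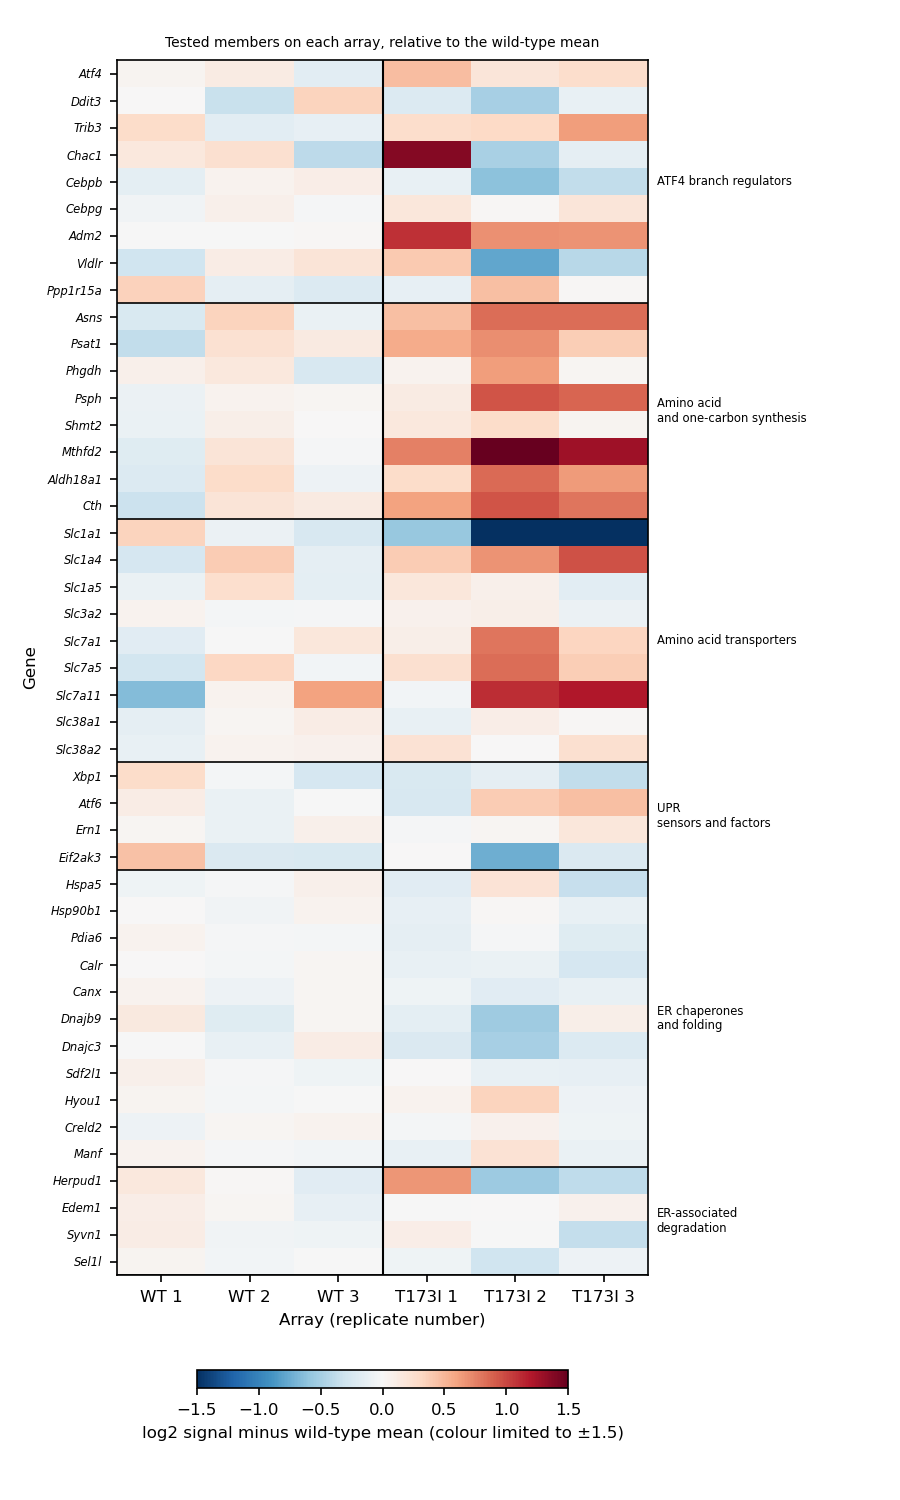
Each row is one of the 45 tested genes and each column an array; colour is the log2 signal minus the wild-type mean of the gene, limited to ±1.5. Most amino acid synthesis genes are red on all 3 T173I arrays, Slc1a1 is blue there, and most ER chaperones are pale.

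Enzymes that make amino acids and one-carbon units had positive differences in all 8 tested genes, and their median was 0.62. In 6 of the 8 the T173I arrays lay wholly above the wild-type arrays, as they did in 7.23% of all genes. Values on arrays are log2 signals, given in the order of replicates 1 to 3. Mthfd2, which supplies one-carbon units in mitochondria, was at 8.53, 8.91 and 8.70 on the wild-type arrays and at 9.47, 10.25 and 9.99 on the T173I arrays. Its lowest T173I array, replicate 1, lay above its highest wild-type array. The difference of Mthfd2 was 1.19 (95% interval 0.69 to 1.69), with an adjusted p of 0.43.

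Cth, cystathionine gamma-lyase, makes cysteine in the transsulfuration pathway. Its signal was at 6.99, 7.50 and 7.44 on the wild-type arrays and at 7.91, 8.25 and 8.11 on the T173I arrays, a difference of 0.78 (95% interval 0.40 to 1.17) with no overlap of the groups. Asns, asparagine synthetase and the textbook ATF4 target, was at 9.61, 10.17 and 9.73 on the wild-type arrays and at 10.30, 10.68 and 10.67 on the T173I arrays. Asns thus showed a gap between the groups, from 10.17 on the highest wild-type array to 10.30 on the lowest T173I array, with a difference of 0.71 (95% interval 0.28 to 1.14). Aldh18a1, which starts proline synthesis from glutamate, was at 9.69, 10.18 and 9.83 on the wild-type arrays and at 10.18, 10.76 and 10.54 on the T173I arrays. In Aldh18a1 the groups nearly touched at 10.18, the values of wild-type replicate 2 and T173I replicate 1 to 2 decimals, and the difference was 0.59 (95% interval 0.15 to 1.04).

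The serine pathway was read from its 3 enzymes. Phgdh, which takes the first step, was at 9.30, 9.39 and 8.99 on the wild-type arrays and at 9.28, 9.85 and 9.25 on the T173I arrays. T173I replicates 1 and 3 lay within the wild-type range and replicate 2 above it, with a difference of 0.23 (95% interval -0.22 to 0.69). Psat1, the aminotransferase of the next step, was at 9.23, 9.83 and 9.73 on the wild-type arrays and at 10.15, 10.30 and 9.96 on the T173I arrays, a difference of 0.54 (95% interval 0.12 to 0.96) without overlap. Psph, the phosphatase of the last step, was at 7.13, 7.27 and 7.25 on the wild-type arrays and at 7.33, 8.16 and 8.09 on the T173I arrays, and the difference was 0.65 (95% interval 0.12 to 1.17). Replicates 2 and 3 carried most of the difference of Psph, while replicate 1 was just above the wild-type arrays. Shmt2, which splits serine into glycine and a one-carbon unit in mitochondria, had a difference of 0.16 (95% interval -0.07 to 0.39) from a wild-type mean of 11.60, with 2 of 3 T173I arrays above the wild-type range.

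**Figure D2:**
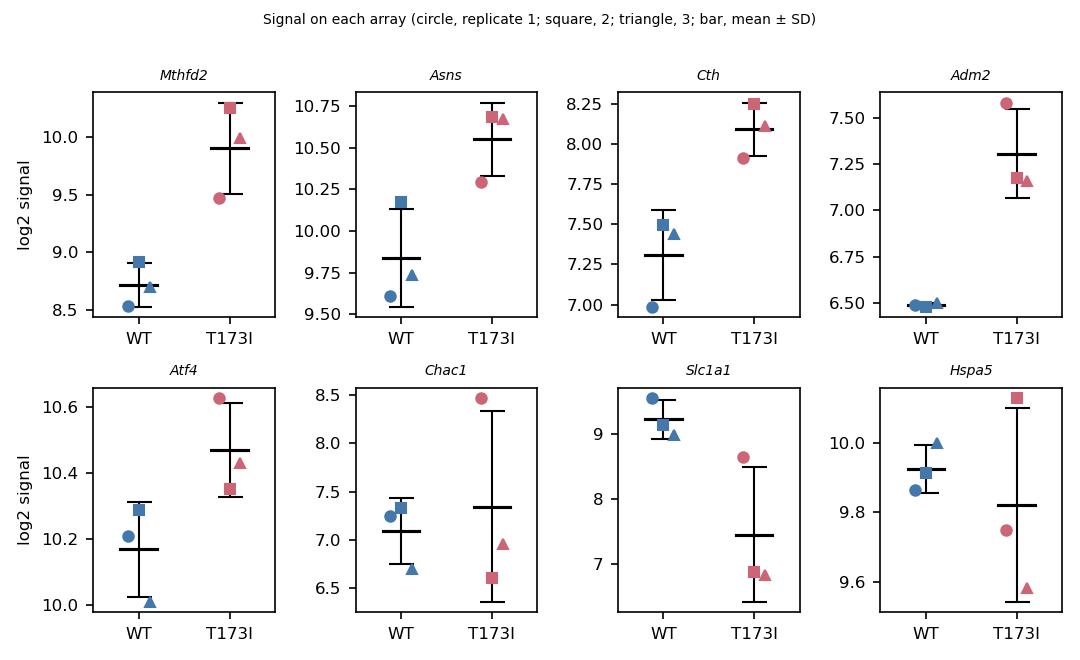
Log2 signal of 8 members on each array (points) with the mean and SD of the 3 arrays of a group. Mthfd2, Asns, Cth, Adm2 and Atf4 are higher on all T173I arrays, Slc1a1 is lower on all of them, Chac1 is high on T173I replicate 1 alone and the groups overlap in Hspa5.

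The regulators of the ATF4 branch were mixed. Of 9 tested, 6 had positive and 3 negative differences, with a median of 0.12. Atf4 itself was at 10.21, 10.29 and 10.01 on the wild-type arrays and at 10.63, 10.35 and 10.43 on the T173I arrays. The lowest T173I array, at 10.35, was just above the highest wild-type array, at 10.29, and the difference of Atf4 was 0.30 (95% interval 0.03 to 0.57), a 1.23-fold difference. Adm2, a peptide of the adrenomedullin family, was at 6.49, 6.48 and 6.50 on the wild-type arrays and at 7.58, 7.18 and 7.16 on the T173I arrays. The wild-type arrays of Adm2 lay within 0.03 log2 units of each other and all T173I arrays far above them, a difference of 0.82 (95% interval 0.51 to 1.12).

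Trib3, a pseudokinase that restrains ATF4, was at 7.01, 6.58 and 6.62 on the wild-type arrays and at 7.00, 7.03 and 7.37 on the T173I arrays. Wild-type replicate 1 overlapped the T173I arrays in Trib3, and the difference was 0.40 (95% interval 0.02 to 0.77). Chac1, which degrades glutathione, was at 7.25, 7.33 and 6.70 on the wild-type arrays and at 8.47, 6.61 and 6.96 on the T173I arrays. T173I replicate 1 was the highest of the 6 arrays and replicate 2 the lowest. The difference of Chac1 was 0.26 (95% interval -0.88 to 1.39), and without T173I replicate 1 it was -0.31.

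Ddit3, which encodes the pro-apoptotic factor CHOP, was at 7.57, 7.23 and 7.89 on the wild-type arrays and at 7.36, 7.06 and 7.45 on the T173I arrays. The groups overlapped in Ddit3, with a difference of -0.27 (95% interval -0.73 to 0.18). Cebpb, a C/EBP factor that pairs with ATF4, was at 8.38, 8.58 and 8.63 on the wild-type arrays and at 8.41, 7.91 and 8.15 on the T173I arrays, and its difference was -0.37 (95% interval -0.71 to -0.02). T173I replicate 1 lay within the wild-type range of Cebpb and replicates 2 and 3 below it. Cebpg, another partner of ATF4, had a difference of 0.12 (95% interval -0.08 to 0.32) from a wild-type mean of 8.18. Ppp1r15a, which encodes GADD34, the phosphatase subunit that ends the response, had 0.11 (95% interval -0.37 to 0.60) from a wild-type mean of 7.54. Vldlr, a lipoprotein receptor with the ATF4 element shown above, had a difference of -0.27 (95% interval -0.99 to 0.46) from a wild-type mean of 10.12. T173I replicate 1 of Vldlr was above the wild-type range and the other T173I arrays were below it.

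Amino acid transporters gave a small median difference of 0.15 over 9 tested genes, 8 of them positive, and held the largest negative value of all members. Slc1a1, the neuronal and epithelial glutamate and cysteine carrier EAAT3, was at 9.56, 9.13 and 8.99 on the wild-type arrays and at 8.65, 6.87 and 6.84 on the T173I arrays. All T173I arrays lay below the wild-type arrays, replicate 1 by the least. The mean was 9.23 ± 0.30 (SD, n = 3) for wild type and 7.45 ± 1.04 (SD, n = 3) for T173I, and the difference -1.77 (95% interval -2.94 to -0.60) with an adjusted p of 0.449. Without T173I replicate 1 it was -2.37. Slc1a4, the alanine, serine and cysteine exchanger ASCT1, was at 6.32, 6.95 and 6.43 on the wild-type arrays and at 6.95, 7.24 and 7.52 on the T173I arrays. The groups touched in Slc1a4, as wild-type replicate 2 and T173I replicate 1 had the same value, and the difference was 0.67 (95% interval 0.17 to 1.17).

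Slc7a11, the cystine importer xCT, is the transporter with the paired elements in its promoter. It was at 6.42, 7.13 and 7.67 on the wild-type arrays and at 7.04, 8.18 and 8.27 on the T173I arrays, spread widely in both groups. T173I replicates 2 and 3 lay above the wild-type range and replicate 1 within it, and the interval of the difference held 0, at 0.76 (95% interval -0.26 to 1.77). A dimmer probe set of Slc7a11, under the filter, was at 3.11, 3.18 and 3.15 on the wild-type arrays and at 3.41 on every T173I array. Slc7a5, the leucine importer LAT1, had 0.48 (95% interval -0.01 to 0.98) from a wild-type mean of 11.15 and Slc7a1, the arginine and lysine importer, 0.40 (95% interval -0.05 to 0.86) from a wild-type mean of 9.89, each with 2 of 3 T173I arrays above the wild-type range. Slc3a2, the heavy chain that LAT1 and xCT share, had 0.02 (95% interval -0.18 to 0.22) from a wild-type mean of 11.89. Slc38a2, the neutral amino acid carrier SNAT2, had 0.15 (95% interval -0.08 to 0.39) from a wild-type mean of 11.54. Slc38a1, a glutamine carrier, had 0.00 (95% interval -0.24 to 0.24) from a wild-type mean of 11.08 and Slc1a5, the exchanger ASCT2, 0.03 (95% interval -0.31 to 0.37) from a wild-type mean of 9.85. The dimmer probe set of Slc1a5 had a difference of 0.097. For Slc3a2, Slc38a1 and Slc1a5 the sign depended on which arrays were used.

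A pair of transporter genes stood outside the limma fit. Slc7a3, a cationic amino acid transporter, was dim, at 4.78, 4.62 and 4.63 on the wild-type arrays and at 4.62, 4.88 and 4.57 on the T173I arrays, with no separation of the groups. The probe set listed for Slc6a9, a glycine transporter, and its neighbour Ccdc24 had log2 signals of 6.93, 7.34 and 7.15 in wild type and 7.74, 7.82 and 8.18 in T173I. Its T173I arrays lay above its wild-type arrays by 0.78 in the mean (exact two-sided permutation p = 0.1, the smallest that 3 against 3 arrays allow). Which of the neighbouring genes gave that signal cannot be told apart.

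**Figure D3:**
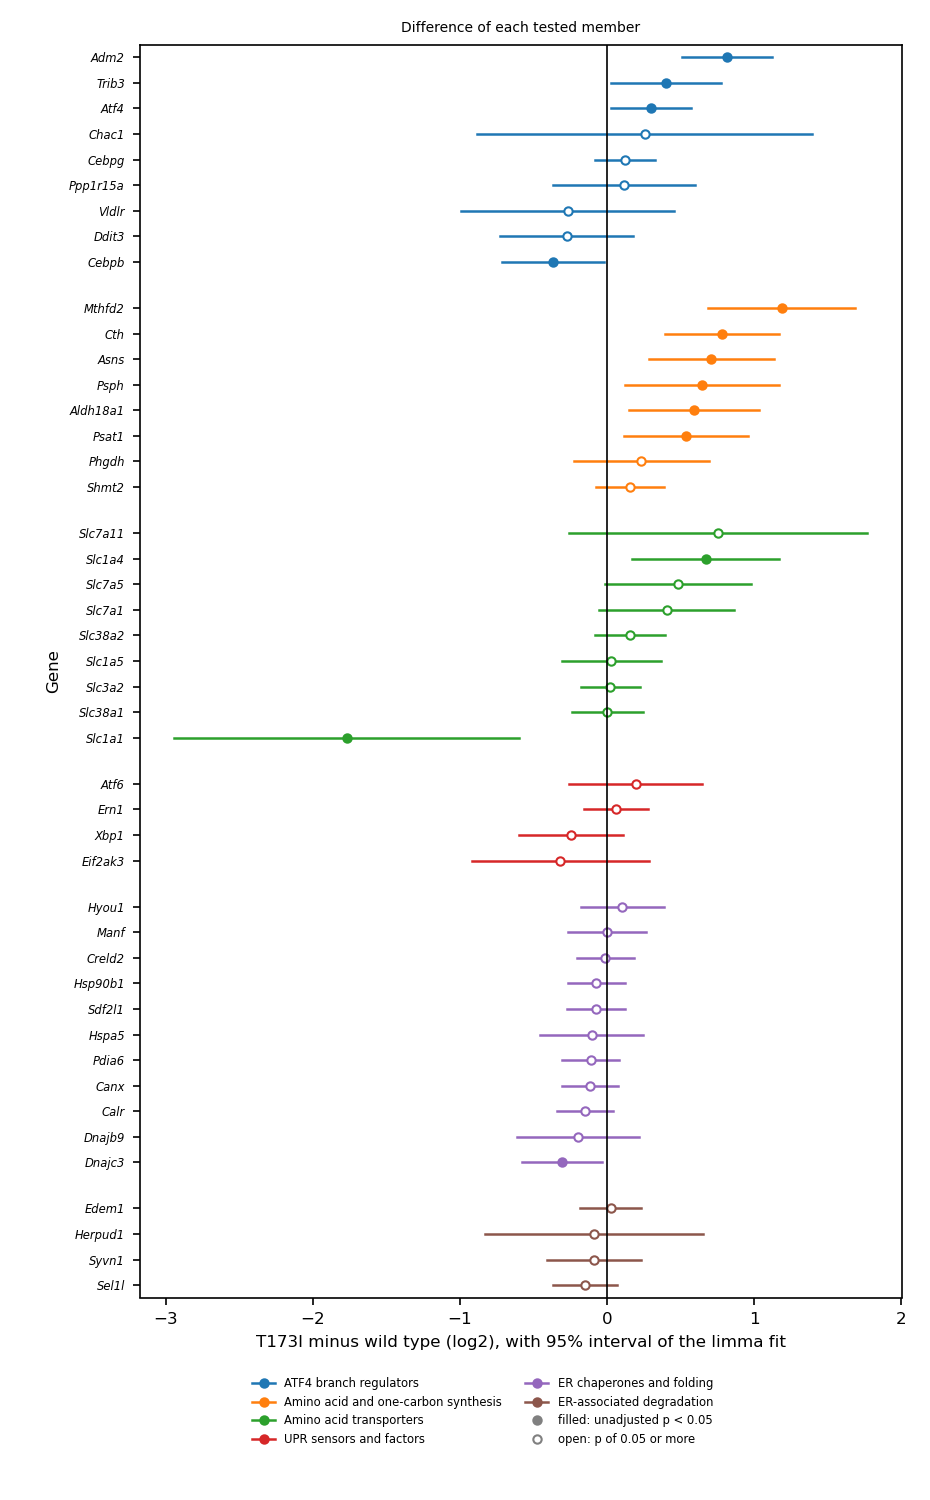
Difference between T173I and wild type in log2 units with the 95% interval of the limma fit, for the 45 tested genes by role; filled points have an unadjusted p under 0.05. The intervals of 6 synthesis enzymes lie above 0, from Psat1 at 0.54 to Mthfd2 at 1.19, and Slc1a1 lies at -1.77.

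The sensors and factors of the unfolded protein response overlapped between the groups in all 4 genes. Xbp1, whose spliced form drives ER chaperone and degradation genes, was at 10.21, 9.91 and 9.68 on the wild-type arrays and at 9.70, 9.80 and 9.57 on the T173I arrays, with a difference of -0.24 (95% interval -0.60 to 0.11). The array measures total Xbp1 message and not its splicing. Atf6, the membrane-bound factor that is cleaved under ER stress, was at 10.32, 10.11 and 10.21 on the wild-type arrays and at 9.98, 10.60 and 10.67 on the T173I arrays. T173I replicate 1 was the lowest of the 6 arrays for Atf6 and replicates 2 and 3 the highest, and the difference was 0.20 (95% interval -0.26 to 0.65). Eif2ak3, which encodes PERK, was at 9.60, 8.95 and 8.94 on the wild-type arrays and at 9.16, 8.42 and 8.94 on the T173I arrays, a difference of -0.32 (95% interval -0.92 to 0.28) with overlapping groups. Ern1, which encodes IRE1, had 0.06 (95% interval -0.16 to 0.28) from a wild-type mean of 7.70.

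ER chaperones and folding factors were near 0 or slightly lower in T173I. Of 11 tested 9 had negative differences, with a median of -0.10, and the range of the whole ER arm was -0.32 to 0.20. Hspa5, which encodes BiP, the master chaperone of the ER, was at 9.86, 9.91 and 10.00 on the wild-type arrays and at 9.75, 10.13 and 9.58 on the T173I arrays. T173I replicate 2 was the highest array for Hspa5 and replicate 3 the lowest, and the difference was -0.10 (95% interval -0.45 to 0.25). Dnajc3, a BiP co-chaperone that also inhibits eIF2 kinases, was at 9.71, 9.61 and 9.83 on the wild-type arrays and at 9.50, 9.21 and 9.51 on the T173I arrays. Its T173I arrays all lay below its wild-type arrays, with a difference of -0.31 (95% interval -0.58 to -0.03) and an adjusted p of 0.483. Calr, the lectin chaperone calreticulin, was at 12.29, 12.26 and 12.31 on the wild-type arrays and at 12.18, 12.19 and 12.04 on the T173I arrays, also without overlap, and the difference was -0.15 (95% interval -0.34 to 0.04).

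The remaining folding genes had small differences, and every interval held 0. Hsp90b1, the ER form of HSP90, had a difference of -0.07 (95% interval -0.26 to 0.12) from a wild-type mean of 12.39, and Canx, calnexin, one of -0.12 (95% interval -0.31 to 0.07) from a wild-type mean of 12.31. Pdia6, a disulfide isomerase, had -0.11 (95% interval -0.31 to 0.08) from a wild-type mean of 11.34, and Dnajb9, a BiP co-chaperone induced by XBP1, -0.20 (95% interval -0.61 to 0.22) from a wild-type mean of 9.43. Sdf2l1, a BiP partner, had -0.07 (95% interval -0.27 to 0.12) from a wild-type mean of 8.89 and Hyou1, a nucleotide exchange factor for BiP, 0.10 (95% interval -0.18 to 0.39) from a wild-type mean of 9.41. Creld2 and Manf, secreted ER stress proteins, had -0.01 (95% interval -0.21 to 0.18) from a wild-type mean of 9.99 and 0.00 (95% interval -0.26 to 0.26) from a wild-type mean of 6.18. The probe set listed for Pdia4, another isomerase, and Mir704 was at 9.10, 9.04 and 9.11 in wild type and 8.91, 9.00 and 9.05 in T173I (exact two-sided permutation p = 0.2 for its difference of -0.098).

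Genes of ER-associated degradation, which pulls misfolded proteins out of the ER, had a median difference of -0.087 over 4 genes. Sel1l, the adaptor of the degradation complex, was at 9.96, 9.88 and 9.90 on the wild-type arrays and at 9.84, 9.62 and 9.83 on the T173I arrays. Its T173I arrays lay just below its wild-type arrays, with a difference of -0.15 (95% interval -0.37 to 0.07). Syvn1, the ubiquitin ligase HRD1, was at 9.66, 9.48 and 9.48 on the wild-type arrays and at 9.63, 9.54 and 9.19 on the T173I arrays, a difference of -0.09 (95% interval -0.41 to 0.23). Herpud1, which recruits the complex and carries the ERSE-II element and a C/EBP-ATF element, was at 9.44, 9.30 and 9.12 on the wild-type arrays and at 9.95, 8.75 and 8.91 on the T173I arrays. As in Chac1, T173I replicate 1 was the highest of the 6 arrays for Herpud1, and the difference was -0.09 (95% interval -0.83 to 0.65), or -0.46 without that array. Edem1, a mannosidase-like lectin, had 0.02 (95% interval -0.19 to 0.23) from a wild-type mean of 9.51, and its dimmer probe set had a difference of -0.11.

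Set against each other on each array, the arms separated the groups. The mean of the ATF4 arm relative to the wild-type means was 0.26, 0.28 and 0.23 on T173I replicates 1 to 3, against -0.093 to 0.094 on the wild-type arrays. The mean of the ER arm was -0.045, -0.099 and -0.12 on the T173I arrays, against -0.053 to 0.081 in wild type. The ATF4 arm minus the ER arm was 0.30, 0.38 and 0.35 on the T173I arrays and -0.17, 0.15 and 0.027 on the wild-type arrays. T173I replicate 1, which lay among the wild-type arrays over all genes, thus lay with its own group by this measure. Its ER arm mean alone, at -0.045, was within the wild-type range. The even means of the ATF4 arm include Chac1 (8.47, 6.61 and 6.96 on the T173I arrays) and Slc1a1 (8.65, 6.87 and 6.84). Both were highest on replicate 1 among the T173I arrays, and means without them were not taken. No test was made of these list means, since the members were chosen with results known.

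The groups within the ATF4 arm did not follow the arrays alike. The mean of the synthesis enzymes was lowest on T173I replicate 1, at 0.37, with 0.84 and 0.61 on replicates 2 and 3 and a wild-type range of -0.18 to 0.19. Wild-type replicates 1 to 3 were at -0.18, 0.19 and -0.015, so replicate 1 was lowest and replicate 2 highest in both groups. The mean of the regulators was highest on T173I replicate 1, at 0.37, and was -0.083 and 0.080 on replicates 2 and 3, with a wild-type range of -0.029 to 0.035. The transporters were at 0.049, 0.15 and 0.052, where the wild-type range was -0.15 to 0.11. Against the wild-type range of each gene, 14, 17 and 15 of the 26 genes of the ATF4 arm lay above it on T173I replicates 1 to 3, where 29.1%, 31.2% and 29.7% of all genes did so. Of the 19 ER genes 8, 8 and 13 lay below it, where 24.8%, 39.8% and 33.8% of all genes did so.

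**Figure D4:**
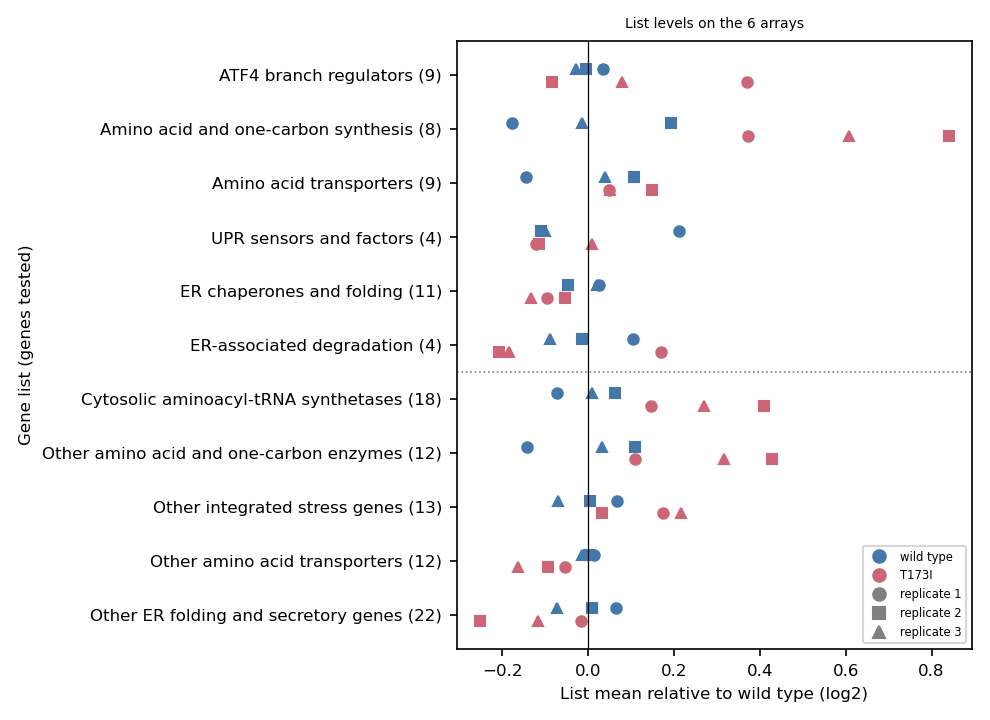
Mean of each gene list on each array relative to the wild-type means of its genes, in log2 units, for the 6 role groups (above the dotted line) and 5 further lists of the pathway. The 3 T173I arrays lie to the right of all wild-type arrays for the synthesis enzymes, at 0.37 to 0.84, and for the tRNA synthetases, at 0.15 to 0.41. They lie to the left of all wild-type arrays for the ER chaperones, at -0.13 to -0.053, and the other amino acid transporters, at -0.16 to -0.054.

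Leaving out T173I replicate 1 brought 4 members past the adjusted threshold in limma, where 1.17% of all genes (156 of 13308) passed, 0.684% higher and 0.488% lower. Mthfd2 then had a difference of 1.41 (adjusted p = 0.027), Psph 0.91 (adjusted p = 0.0246) and Adm2 0.68 (adjusted p = 0.0293). Slc1a1 had -2.37 (adjusted p = 0.016). All 4 are of the ATF4 arm and 0 of the ER arm passed. Under the other alternatives the adjusted p ran from 0.0866 to 0.838 for Mthfd2, from 0.112 to 0.838 for Psph, from 0.0769 to 0.838 for Adm2 and from 0.106 to 0.838 for Slc1a1. Leaving out any other array brought no member past the threshold. T173I replicate 1 was the T173I array that lay among the wild-type arrays on the first principal component. Its removal leaves 2 T173I arrays, so the members that passed without it are no separate support for a difference.

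Further genes of the pathway were read from lists chosen by name with earlier results of these data known, so they are no independent check. The cytosolic aminoacyl-tRNA synthetases, which charge tRNAs and include many ATF4 targets, had positive differences in all 18 tested genes, with a median of 0.22 and a range of 0.011 to 0.75. An unadjusted p under 0.05 was reached by 5 of the 18, all higher in T173I, where 4.88% of all genes were higher and 5.31% lower, and none passed after adjustment. Cars, for cysteine, was at 8.16, 8.62 and 8.32 on the wild-type arrays and at 8.80, 9.26 and 9.28 on the T173I arrays, with a difference of 0.75 (95% interval 0.33 to 1.17). Gars, for glycine, had 0.50 (95% interval 0.21 to 0.80) and Iars, for isoleucine, 0.65 (95% interval 0.21 to 1.08). Lars, for leucine, had 0.35 (95% interval 0.10 to 0.60), and the fifth by p was Nars, for asparagine, with 0.41. In 6 of the 18 genes all T173I arrays lay above all wild-type arrays, as in 7.23% of all genes. Without T173I replicate 1 Iars passed, with an adjusted p of 0.0255 against 0.449 with all arrays.

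Other enzymes of amino acid and one-carbon metabolism were mixed, with 7 of 12 positive and a median of 0.15. Bcat1, the cytosolic branched-chain aminotransferase, was at 6.38, 6.98 and 6.70 on the wild-type arrays and at 7.38, 8.54 and 7.96 on the T173I arrays, the largest difference of the further lists at 1.27 (95% interval 0.55 to 1.99). Mthfd1l, which works downstream of Mthfd2 in mitochondria, was at 7.80, 8.40 and 8.42 on the wild-type arrays and at 8.60, 9.14 and 9.17 on the T173I arrays, with a difference of 0.76 (95% interval 0.23 to 1.30). Bcat2, the mitochondrial aminotransferase, was higher by 0.25 and Gpt2, which makes alanine and glutamate interconvert with their keto acids, by 0.69, both without overlap. At an unadjusted p under 0.05 the list had 5 genes higher and 1 lower (4.88% and 5.31% of all genes), the others being Got1, an aspartate aminotransferase, with 0.44, and Shmt1, the cytosolic counterpart of Shmt2, with -0.24. The mitochondrial one-carbon genes Mthfd2, Mthfd1l and Shmt2 had positive differences, and the cytosolic genes Mthfd1 and Shmt1 negative ones, that of Mthfd1 being -0.10 (95% interval -0.32 to 0.11). That contrast was picked after the values were seen.

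**Figure D5:**
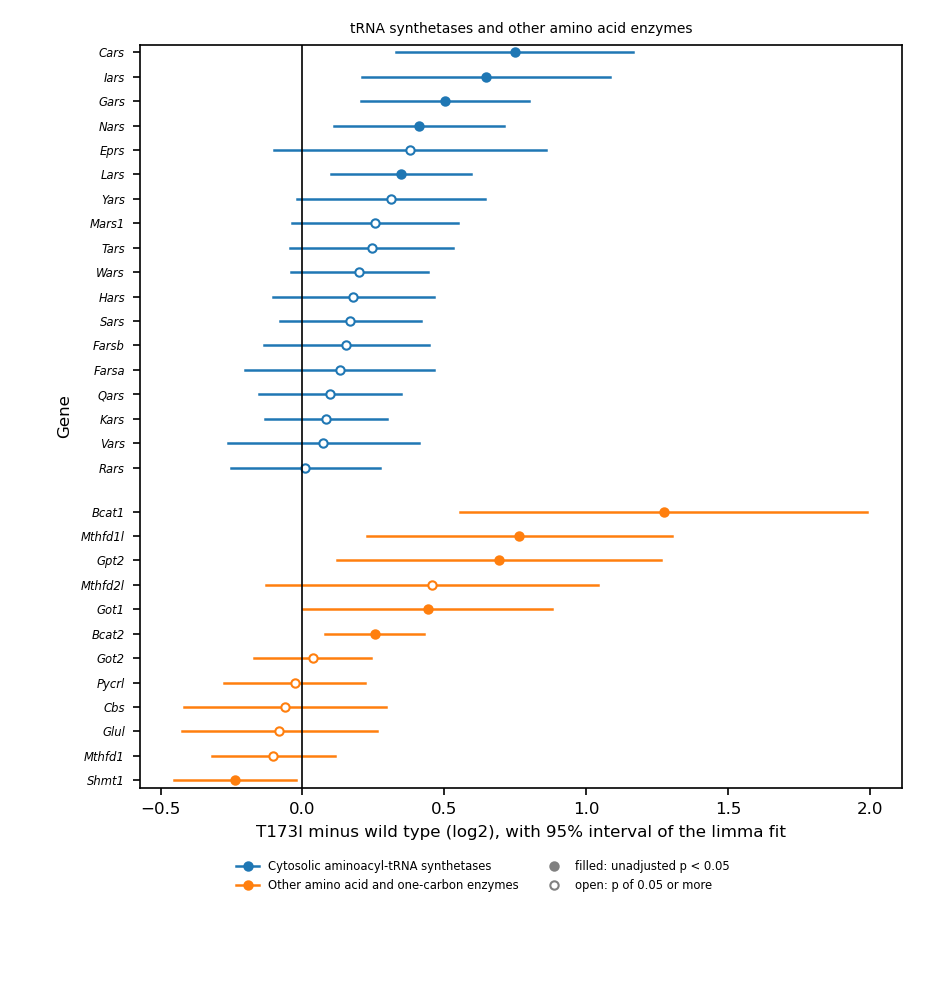
Difference between T173I and wild type in log2 units with 95% intervals for 18 tRNA synthetases and 12 further enzymes. All 18 synthetases lie above 0, from 0.011 to 0.75, while the enzymes run from Shmt1 at -0.24 to Bcat1 at 1.27.

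Other genes of the integrated stress response gave a median of 0.071 over 13 tested, 10 of them positive and 2 higher at an unadjusted p under 0.05 (4.88% of all genes). Eif4ebp1, which encodes the translation inhibitor 4E-BP1, was at 9.97, 10.31 and 10.08 on the wild-type arrays and at 10.38, 10.71 and 10.72 on the T173I arrays, with a difference of 0.48 (95% interval 0.16 to 0.81). Eif2ak2, which encodes the RNA-sensing kinase PKR, had 0.36 (95% interval 0.08 to 0.64). Xpot, an export factor for tRNA, and Jdp2, an AP-1 family repressor, had 0.30 and 0.20. The kinase that senses amino acid shortage, GCN2, encoded by Eif2ak4, had a difference of 0.06 (95% interval -0.12 to 0.25). Eif2ak4 was added for its place in the pathway after the values were seen. The 3 negative differences of the list were those of Ddit4 (-0.21), Sesn2 (-0.11) and Eif2ak1 (-0.068), each with an interval that held 0.

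Among amino acid transporters outside the members 4 of 12 had positive differences, with a median of -0.088. Slc38a7, a lysosomal glutamine carrier, had a difference of -0.29 (95% interval -0.55 to -0.03), the only one of the list at an unadjusted p under 0.05 (10.2% of all genes). Slc38a10, Slc38a9 and Slc36a4 had -0.32, 0.13 and -0.17. ER folding and secretory genes outside the members had 17 of 22 negative differences and a median of -0.13. Hspa13, a microsomal HSP70, was at 9.55, 9.47 and 9.35 on the wild-type arrays and at 9.23, 9.02 and 9.18 on the T173I arrays, with a difference of -0.31 (95% interval -0.54 to -0.08). Ero1a, the ER oxidase, was higher by 0.27, and Mbtps1, the protease that activates ATF6, had -0.20. Derl3, a degradation factor, had -0.79, with an interval that held 0. No gene of these lists passed over all genes tested.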

How the data were processed

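Total RNA was labelled with biotin by the Affymetrix WT PLUS kit, per the labels' protocols. Signals in the authors' deposited table are on the log2 scale after RMA, which the submitters' processing notes name without settings. RMA makes the arrays' distributions alike, so a shift of most transcripts would not be seen. Arrays have no read depth, and their number limits the precision. Of 41345 probe sets, 23521 had 1 gene symbol, 1814 had several and 16010 are unnamed here. The 40% of genes with the lowest mean (log2 5.37 or less) were left out. The fit used limma 3.58.1 in R 4.3.3 (lmFit, eBayes, no covariate, both directions) over 13308 genes with Benjamini-Hochberg adjustment and a threshold of 0.05. It was also run on simulated arrays with equal spread in both groups, which does not cover the unequal spread of these arrays. P-values set the difference of a gene against the spread between arrays within the groups, moderated over all genes. Intervals are 95% intervals of the fit.

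All members were named. Values on each array were given for 8 preset genes, members with an unadjusted p under 0.05 and the 2 with the smallest p of each role. Up to 4 genes of each further list were chosen by p, most of them given by their difference only. The members and lists were chosen with earlier results of these data known, and lists have no test. Mars1, Ero1a, Ero1b and Selenok were matched through older symbols. Promoter windows were shown for up to 8 members by p; matches at or after the start (Slc1a4, Trib3) were passed over, a limit set after the data were seen. Same-numbered arrays had correlations of deviations of 0.0488, 0.0667 and 0.0477 over all genes tested and were not treated as pairs. For the synthesis enzymes, member transporters, tRNA synthetases and other amino acid enzymes, replicate 1 had the lowest list mean and replicate 2 the highest in both groups. Of the remaining role groups and further lists, only the other amino acid transporters kept the same order of replicates in both groups. Protein sequences were not used here. Alternatives covered the filter, probe set rule, normalization, eBayes prior, array weights, replicate block and leaving out each array. One T173I array has a title without the T of the variant, and its characteristics name T173I.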

Additional observations from a re-analysis of the deposited data

How the results depend on the processing

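Across the alternatives the medians of the ATF4 arm, the ER arm, the synthesis enzymes and the tRNA synthetases kept their signs. Leaving out each array gave 0.20 to 0.34 for the ATF4 arm (0.20 without wild-type replicate 3), and the ATF4 arm minus the ER arm lay at 0.26 to 0.42. The same step gave 0 to 156 genes with an adjusted p under 0.05 and 670 to 2946 with an unadjusted p under 0.05, the highest of each without T173I replicate 1. It gave 5 to 12 higher and 1 to 3 lower members of the ATF4 arm at an unadjusted p under 0.05, with 0 to 4 past the adjusted threshold. For the ER arm it gave 0 to 1 higher and 0 to 2 lower. With array weights 2856 genes had an unadjusted p under 0.05, and 1 ER gene was higher at that level. The replicate block gave 0 genes past the adjusted threshold, 1508 at an unadjusted p under 0.05, and 12 higher and 2 lower members of the ATF4 arm. In the limma fit with the block, Trib3 (unadjusted 0.0617) and Cebpb (0.0689) no longer reached that level, and Ddit3 (0.0451), Slc7a1 (0.0476), Slc7a5 (0.00315) and Slc7a11 (0.00206) did. The lower members were therefore Slc1a1 with Ddit3 in place of Cebpb. The samples share only a number, and the block moved no other member across that level.

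Of 45 members 32 kept their direction under all alternatives. The other 13 lay near 0 or varied widely between arrays. With array weights the differences were -0.022 for Chac1, -0.15 for Slc1a5, -0.032 for Slc3a2, 0.016 for Dnajb9 and -0.055 for Manf, and the mean of probe sets gave -0.044 for Edem1. Leaving out each array gave ranges of -0.31 to 0.62 for Chac1, -0.054 to 0.29 for Ppp1r15a, -0.044 to 0.15 for Slc1a5, -0.012 to 0.079 for Slc3a2 and -0.065 to 0.059 for Slc38a1. It gave -0.26 to 0.015 for Hspa5, -0.0093 to 0.20 for Hyou1, -0.052 to 0.016 for Creld2, -0.11 to 0.058 for Manf, -0.46 to 0.14 for Herpud1, -0.038 to 0.074 for Edem1 and -0.18 to 0.046 for Syvn1. The cause of these changes was not tested.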
